A study of Mus musculus with 2 samples.

Results

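The widest accessible regions of the embryonic mouse femoral growth plate are the stretches of open chromatin that ran for at least 1800 bp. They were selected on width alone, after overlapping peaks of the proximal and distal femur had been merged wherever they shared 1 bp or more. Of 32388 merged regions, 275 (0.849%) were this wide, so the width, the number of peaks in a region and the presence of both ends belong to the rule and are given as description only. The data are ATAC-seq peaks, from an assay in which the Tn5 transposase cuts open DNA and tags it for sequencing. Cartilaginous ends of the femur were dissected from FVB mouse embryos at E15.5, with no treatment or engineered allele in either group, and cells of the proximal or of the distal end were pooled within a litter of 8 animals on average. Each femur end had 2 biological replicates of 50000 cells, released from the tissue with collagenase. The cells are labelled as chondrocytes, though the dissected ends also hold perichondrium. The peak files used here give 1 list of positions per end, in which the replicates were already combined, without heights or scores. There is therefore no replicate error and no depth behind any single value, and no test between the ends or between regions was made. Shares are given with 95% Wilson intervals, which cover counting error only.

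Chromatin is open where nucleosomes have been displaced, most often at promoters, the sequences that flank transcription start sites, and at enhancers, which lie farther away and act on promoters. Many mammalian promoters sit in CpG islands, stretches of high GC content in which the CpG dinucleotide has not been lost to methylation and mutation, and such promoters can be open in many cell types. In the growth plate, chondrocytes proliferate, enlarge and lay down a matrix of collagen type II, aggrecan and link protein before bone replaces the cartilage. At the start sites of the chondrocyte markers examined, from Col2a1 and Acan to Sox9, 12 of 12 genes had an accessible region of any width, against 0 of 6 osteoblast markers, 3 of 6 markers of perichondrium or fibroblasts, 1 of 8 skeletal muscle, 2 of 7 blood, 3 of 6 endothelial, 2 of 7 epithelial and 2 of 6 neural markers. These markers are short, hand-picked lists. Among all 34 collagen and cartilage genes listed, 23 had a region at the start, and Matn1 and Col10a1 had none. Among all protein-coding genes, 12040 of 20698 had one. Only 1 of all the markers, the link protein gene Hapln1, had a region of 1800 bp or more at its start.

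Sequences at a few of the start sites are printed as examples. The first set below is the 250 bases directly before a protein-coding start inside the region, from the GRCm38.p6 assembly of C57BL/6J mice, for 2 of the widest regions at transcription factor genes and for both regions at matrix genes. Every CpG is in capitals. Klf12 encodes a Krüppel-like factor and Zfp91 a zinc finger protein. Fbn1 encodes fibrillin, the core of extracellular microfibrils, and Hapln1 the protein that fastens aggrecan to hyaluronan.
Klf12: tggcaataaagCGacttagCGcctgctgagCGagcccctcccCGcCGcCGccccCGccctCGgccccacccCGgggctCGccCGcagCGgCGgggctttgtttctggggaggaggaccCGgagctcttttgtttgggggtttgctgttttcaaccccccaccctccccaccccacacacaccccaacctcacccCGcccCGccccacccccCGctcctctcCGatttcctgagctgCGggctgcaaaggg
Zfp91: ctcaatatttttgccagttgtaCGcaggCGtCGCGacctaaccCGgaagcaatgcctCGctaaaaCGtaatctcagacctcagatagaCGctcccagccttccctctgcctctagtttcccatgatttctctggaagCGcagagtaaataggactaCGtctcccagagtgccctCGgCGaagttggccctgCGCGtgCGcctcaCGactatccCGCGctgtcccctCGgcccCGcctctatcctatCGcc
Fbn1: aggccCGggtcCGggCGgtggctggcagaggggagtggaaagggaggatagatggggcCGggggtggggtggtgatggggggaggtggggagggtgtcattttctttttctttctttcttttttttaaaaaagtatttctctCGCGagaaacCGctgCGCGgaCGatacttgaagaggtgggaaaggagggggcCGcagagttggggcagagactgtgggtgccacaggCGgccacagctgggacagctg
Hapln1: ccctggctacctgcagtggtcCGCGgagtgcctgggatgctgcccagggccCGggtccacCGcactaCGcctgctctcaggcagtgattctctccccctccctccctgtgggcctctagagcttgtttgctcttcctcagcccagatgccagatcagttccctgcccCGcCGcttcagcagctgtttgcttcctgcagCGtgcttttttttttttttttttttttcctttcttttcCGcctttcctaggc
The windows lie at chr14:100284680-100284929 (Klf12, minus strand), chr19:12796127-12796376 (Zfp91, minus), chr2:125506386-125506635 (Fbn1, minus) and chr13:89539546-89539795 (Hapln1, plus). They held 19, 21, 12 and 9 CpG dinucleotides respectively. Across the 240 widest regions with a protein-coding start inside, the median was 23.5 CpG in such a window (quartiles 16 and 32.25), compared with 18 (12 and 24) across all 10948 merged regions with a start inside. The windows printed are examples and do not compare transcription factor with matrix genes. Each held fewer CpG than the median of 23.5. The window of the transcription factor gene Nfib, whose region was wider than that of Zfp91, is not printed and held 11. In regions of 1400 to under 1800 bp the median was 23, close to that of the widest.

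The second set holds regions away from start sites, which looked different. The widest intron region and the widest intergenic region are shown by 150 bases at their centres with CpG in capitals, and 2 further regions by 150 bases around the heptamer TGACTCA or TGAGTCA, in capitals, which is bound by AP-1, the Fos and Jun family of transcription factors.
Intron region of chromosome 17: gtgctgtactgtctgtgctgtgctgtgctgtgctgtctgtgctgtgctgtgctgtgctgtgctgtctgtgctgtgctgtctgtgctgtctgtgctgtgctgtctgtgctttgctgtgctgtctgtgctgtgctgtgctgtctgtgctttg
Intergenic region near Zfp825: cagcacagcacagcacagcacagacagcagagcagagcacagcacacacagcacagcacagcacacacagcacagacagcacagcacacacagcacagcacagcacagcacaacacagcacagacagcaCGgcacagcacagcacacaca
Rin2 intron: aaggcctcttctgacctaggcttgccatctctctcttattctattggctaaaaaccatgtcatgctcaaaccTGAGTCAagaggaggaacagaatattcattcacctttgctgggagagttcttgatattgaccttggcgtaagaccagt
Intergenic region near Dock9: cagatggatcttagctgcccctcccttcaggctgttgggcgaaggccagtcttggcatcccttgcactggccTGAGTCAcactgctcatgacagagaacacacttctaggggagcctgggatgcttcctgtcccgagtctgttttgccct
These windows lie on the plus strand of GRCm38.p6 at chr17:13551853-13552002, chr13:74529484-74529633, chr2:145723786-145723935 and chr14:121824677-121824826. The first pair is tandem repeat, with 0 CpG in the whole intron region of 2537 bp and 1 CpG in the whole intergenic region of 2258 bp. In these regions 69.3% and 74.0% of bases were identical to the base 5 bp further on. The last pair held 1 and 2 CpG, and the regions they come from were 26.0% and 10.7% soft-masked as repeat.

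The 275 regions covered 560516 bp. Their widths ran from 1800 to 5746 bp, with a median of 1962 bp and quartiles of 1858 and 2102.5 bp, against a median of 716 bp for all merged regions. Width thinned out quickly above the minimum. There were 109 regions of 1800 to 1899 bp, 50 of 1900 to 1999 bp and 38 of 2200 bp or more. Just inside the minimum were Pkn2, Kctd8 and a region at the pseudogene Gm47612, each 1800 bp, and just outside it were an intergenic region near Smad7 at 1798 bp and the promoters of Shc4 and of Zfp524 with Fiz1, both at 1797 bp. Pkn2 encodes a protein kinase and Smad7 an inhibitor of TGF-beta signalling, and nothing in the widths sets these regions apart from those 2 or 3 bp narrower.

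**Figure D1:**
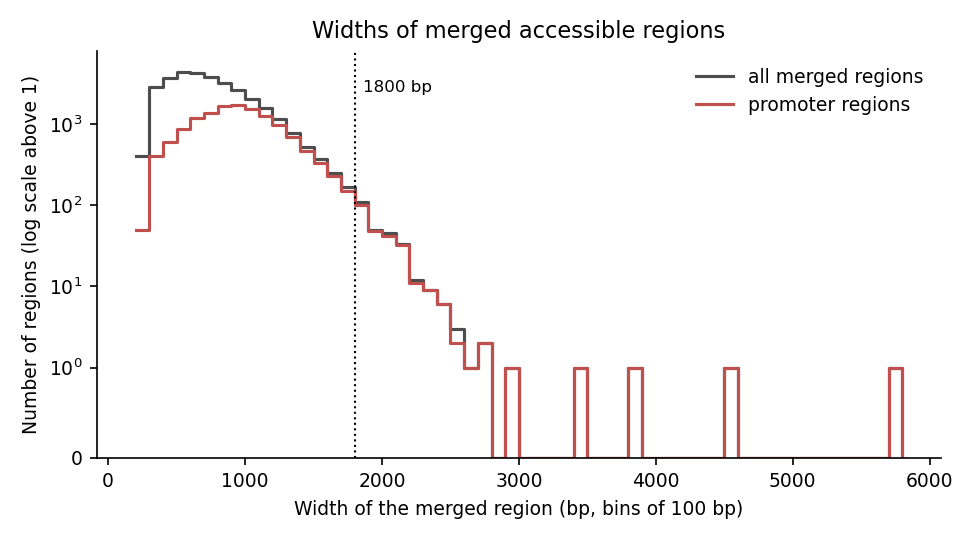
Number of merged regions (log scale above 1) by width in bp, in bins of 100 bp, for all merged regions (grey) and for promoter regions (red), with the minimum of 1800 bp dotted. Beyond the minimum the red line runs close to the grey line, and single regions lie apart between 2900 and 5746 bp.

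Nearly all of the widest regions held peaks of both ends. A peak of both lists was present in 271 of 275 (98.5%, interval 96.3% to 99.4%), against a background of 73.0% of all merged regions and 98.6% of those of 1400 to under 1800 bp. The other 4 held a peak of a single end. Prkce, which encodes protein kinase C epsilon, had a proximal peak of 2043 bp at chr17:86166476-86168518 with no distal peak closer than 4233 bp. The region at Gm47612, a processed pseudogene on chromosome 10, also had a proximal peak only, of 1800 bp. Its sequence had 30 copies elsewhere in the assembly, with a best identity of 98.0%. The distal-only regions were 2469 bp at Muc19, a mucin gene on chromosome 15, and 1850 bp of repeat near Hephl1 on chromosome 9. The nearest peak of the other list was 109950, 141649 and 64873 bp away for these 3. Of the 4 regions, the Prkce promoter alone had a CpG island stretch, which took up 97.1% of it.

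Width in 1 list was mostly matched in the other, which the choice of a peak in the first list did not use. Of 199 proximal peaks of at least 1800 bp, 197 overlapped a distal peak, and the overlapping distal peak had a median width of 1831 bp (quartiles 1544 and 1996 bp), compared with 691 bp for all distal peaks. It was itself at least 1800 bp wide in 110 cases (55.3%, interval 48.3% to 62.0%), where 0.562% of all distal peaks were. In the other direction, 155 of 157 distal peaks of this width overlapped a proximal peak with a median of 1903 bp (quartiles 1786.5 and 2072 bp), and 110 (70.1%, 62.5% to 76.7%) of those chosen met one at least 1800 bp wide, where 0.704% of all proximal peaks were. Few met a narrow partner. The overlapping peak was missing or under 1000 bp for 13 wide proximal peaks and for 4 wide distal peaks.

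Within the widest regions the 2 ends covered similar lengths. Proximal peaks covered 94.6% and distal peaks 90.9% of their bases, with medians of 1884 and 1849 bp. Among the 271 regions of both ends, the proximal peaks covered more bases in 156 and the distal peaks in 114. That is a proximal share of 57.6%, close to the 57.1% over all 23635 merged regions of both ends. The median difference, proximal minus distal, was 24 bp and the median absolute difference 102 bp. The covered lengths were within 200 bp of each other in 172 regions and over 500 bp apart in 44.

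Among regions with peaks of both ends, the largest differences in covered length were at promoters. At Baz1a, which encodes a subunit of chromatin remodelling complexes, proximal peaks covered 1885 bp and distal peaks 393 bp. At Slc35d1, a nucleotide sugar transporter needed for chondroitin sulphate and cartilage, they covered 1890 and 574 bp, and at Parp8, a member of the PARP family, 1972 and 995 bp. Chd1, another chromatin remodeller, had 2049 and 1111 bp. The order was reversed at Dchs2, a protocadherin gene, with 852 proximal and 1978 distal bases, and at Tmeff1, a transmembrane gene, with 1026 and 2115. Each value is a length in a single combined list, so how far such differences exceed the variation between replicates was not measured.

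**Figure D2:**
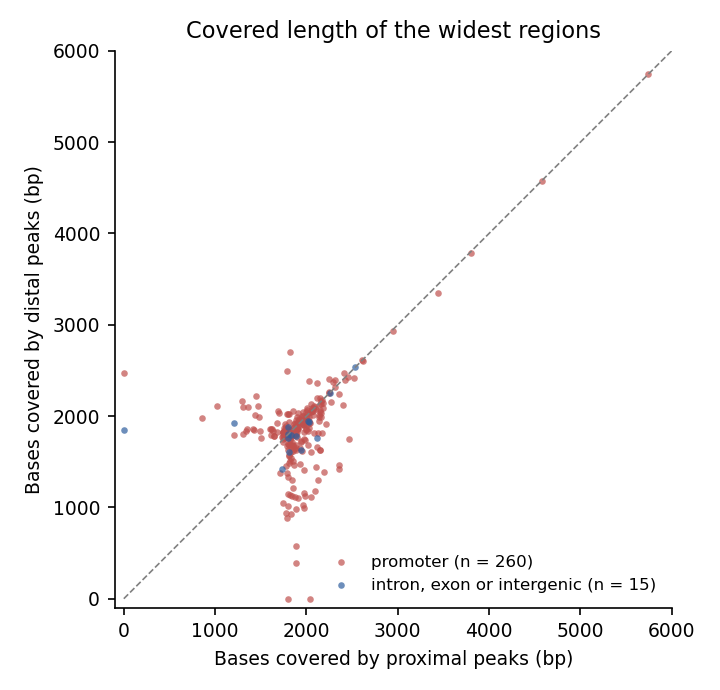
Bases covered by proximal peaks (horizontal, bp) and by distal peaks (vertical, bp) in each of the 275 widest regions, with promoter regions in red, all others in blue and equal lengths dashed. Most points lie along the dashed line around 1900 bp, with arms below and to the left where only 1 list had a wide peak, and the points at 0 are the 4 regions with peaks of a single end.

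Several peaks of the same list were found in 45 of the 275 regions (16.4%, interval 12.5% to 21.2%), where 0.571% of all merged regions and 5.24% of those of 1400 to under 1800 bp held them. No region had more than 2 peaks of a list. A pair of distal peaks was present in 34 regions and a pair of proximal peaks in 16, and 5 regions had both. These 5 were the promoters of Polr2h and Clcn2 (2211 bp), Bach2 (1987 bp), Sgcz (1932 bp), Hapln1 (1853 bp) and Enox1 (1823 bp). Polr2h encodes a subunit of RNA polymerases, Clcn2 a chloride channel, Bach2 a transcriptional repressor and Sgcz a sarcoglycan.

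The interruptions were short. The 50 gaps between neighbouring peaks of a list had a median of 100 bp and ranged from 36 to 545 bp, and a peak of the other list ran across 50 of 50, as it must for the region to merge. The longest were distal gaps of 545 bp at 9930021J03Rik and 512 bp at Cab39, which encodes a partner of the kinase LKB1, and a proximal gap of 421 bp at Rusc1. At Hapln1 the proximal list was interrupted for 45 bp and the distal list for 36 bp. Regions with several peaks were promoters in 42 of 45 cases and had a median width of 1966 bp, against 218 of 230 and 1962 bp for the rest. A single peak of 1800 bp or more was present in 246 of the 275 regions, and 29 reached the minimum only through merging.

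Most of the widest regions were promoters, which here means that the region lay no farther than 1 kb from the annotated start of a transcript. This held for 260 of 275 regions (94.5%, interval 91.2% to 96.7%), compared with 42.5% of all merged regions. Introns held 3 (1.09%, 0.372% to 3.16%) against 26.8%, intergenic sequence 11 (4.00%, 2.25% to 7.02%) against 28.4%, and an exon 1. The promoter share was higher in each wider class, from 15.1% under 500 bp to 37.1%, 80.8% and 89.6% in the classes below the widest. A wide region meets a start site more often through its length, and with the centre of the region in place of its edge the promoter share was 91.6% in the widest regions and 41.1% in all.

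**Figure D3:**
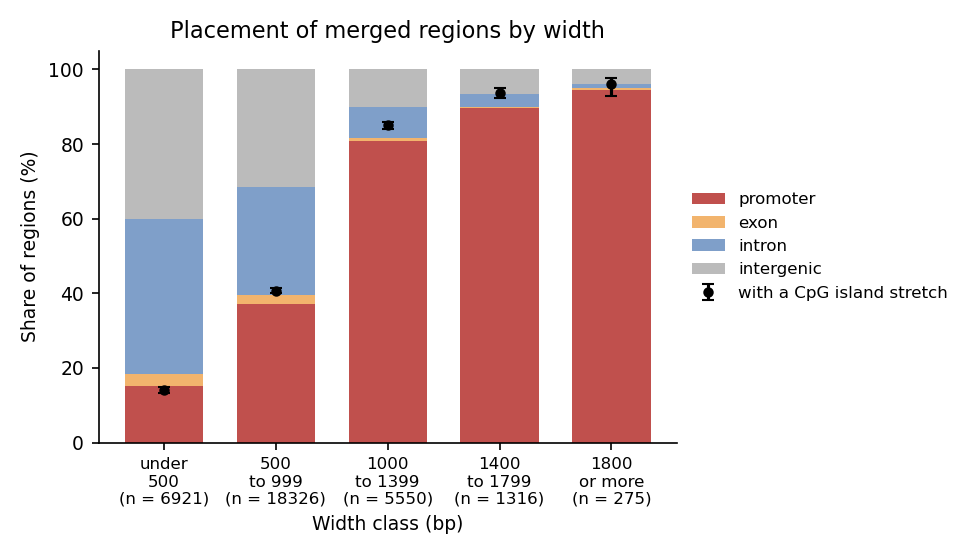
Share of merged regions (%) that were promoter, exon, intron or intergenic (stacked bars) in 5 width classes in bp, and the share with a CpG island stretch (points, with 95% Wilson intervals). Both shares are higher in each wider class and reach 94.5% and 96.0% in the widest class.

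Protein-coding starts accounted for most of these promoters. Of the 260, 245 had a protein-coding transcript starting within 1 kb, 293 genes in all, and 15 had other transcripts only. A single such gene was present at 196 regions, 2 at 48 and 3 at 1. Other annotated starts within 1 kb belonged to 21 antisense genes, 18 long intergenic RNAs, 10 miRNAs, 10 unprocessed pseudogenes and 1 rRNA gene, among others.

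The regions reached about as far into the gene as in front of it. In the 240 regions with a protein-coding start inside, the region extended a median of 950 bp upstream (quartiles 713.5 and 1171.5 bp) and 1048.5 bp downstream (808 and 1251.25 bp) of the start nearest to its centre. It was longer on the downstream side in 137 (57.1%, interval 50.8% to 63.2%), close to the 57.5% of all merged regions with a start inside. Regions under 500 bp leaned the other way, with 35.4% (30.7% to 40.4%) longer downstream. At 1000 bp downstream 56.7% of the regions were still open, and at 1000 bp upstream 43.3%, while in regions of 1400 to under 1800 bp these shares were 21.7% and 10.4%.

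**Figure D4:**
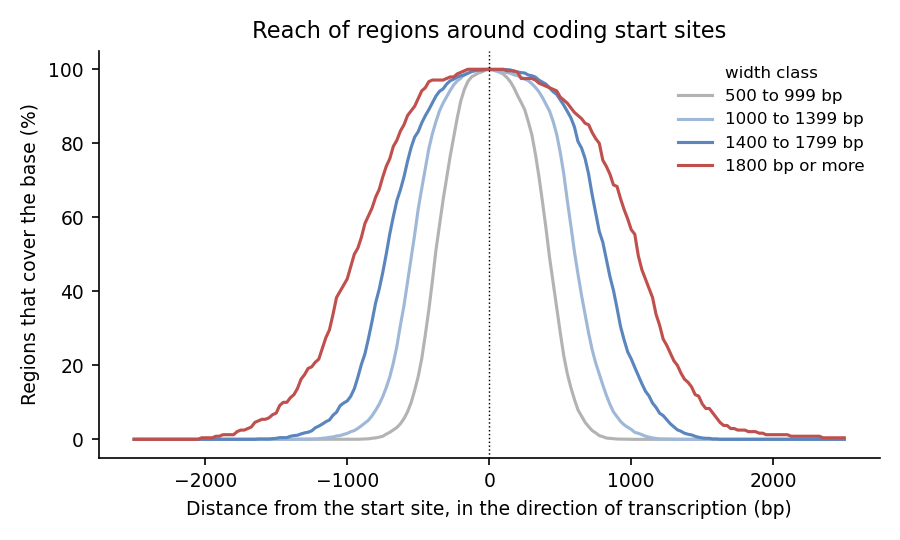
Share of regions that cover each base (%), by distance in bp from the protein-coding start site nearest to the region's centre, with positive distances in the direction of transcription, for 4 width classes. The widest regions (red) cover 56.7% at 1000 bp downstream and 43.3% at 1000 bp upstream, and the narrower classes drawn also lean slightly into the gene.

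Protein-coding starts on both strands lay inside 42 of the 240 regions (17.5%, interval 13.2% to 22.8%), against 13.0% in regions of 1400 to under 1800 bp, 5.81% in those of 500 to under 1000 bp and 9.33% in all merged regions with a start inside. A wider region includes more starts by its length. The widest of them were Zfp91 with Lpxn (2365 bp), Mboat7 with Tsen34 (2298 bp) and Rpl7, a ribosomal protein gene, with Rdh10, a retinol dehydrogenase gene needed to make retinoic acid (2263 bp). Hnrnpk with Rmi1 (1887 bp) and Hnrnpa2b1 with Cbx3 (1876 bp) pair genes of RNA-binding proteins with a gene for DNA repair and one for heterochromatin protein 1 gamma.

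A CpG island stretch, here any 200 bp with a GC content of at least 50% and at least 0.6 of the CpG expected from base composition, was present in 264 of 275 regions (96.0%, interval 93.0% to 97.8%), against 45.3% of all merged regions and 93.8% of those of 1400 to under 1800 bp. Such stretches filled a median of 88.8% of each region (quartiles 76.8% and 96.2%). Median GC content was 63.3% and median observed over expected CpG 0.773, compared with 51.6% and 0.352 over all merged regions. Both medians were higher in each wider class, and 62.3% and 0.754 were reached at 1400 to under 1800 bp. Soft-masked repeat sequence took up a median of 7.48%, as in all merged regions (7.57%). The regions without an island stretch numbered 11, and 7 of these had a copy elsewhere in the genome, matched mitochondrial DNA or were mostly repeat.

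**Figure D5:**
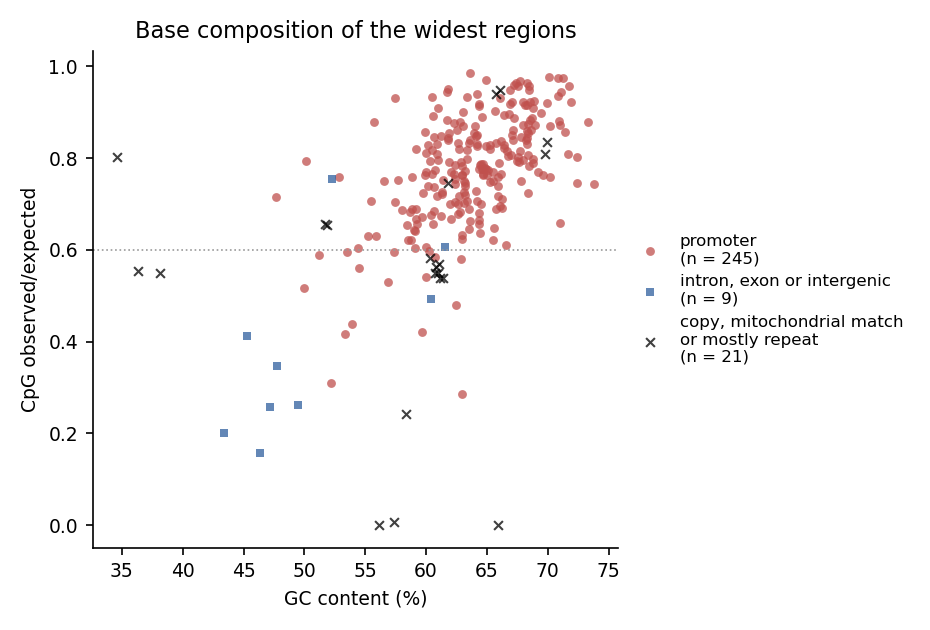
GC content (%) and observed over expected CpG of the 275 widest regions, with promoters in red, other regions as blue squares, and crosses for the 21 regions with a copy elsewhere, a mitochondrial match or over 50% repeat. Promoters crowd above the dotted line at 0.6, the blue squares spread to lower values, and 3 crosses lie at or near 0.

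Some of the widest regions lie in sequence where a short read may be hard to place, and their width may not describe 1 place in the genome. In all, 21 of 275 had a copy elsewhere, a mitochondrial match or over 50% soft-masked repeat. How well reads can be placed in each of them was not measured. A copy of at least 90% identity over at least 50% of the region was found elsewhere in the assembly for 18 (6.55%, interval 4.18% to 10.1%), against 4.79% of regions of 1400 to under 1800 bp. Over 50% soft-masked repeat was found in 4, and 2 matched the mitochondrial genome. These kinds were frequent at the top of the ranking and made up 4 of the 10 widest regions. The samples were from FVB mice and the assembly from C57BL/6J, so copy numbers in the samples may differ from those given here. The part of misplaced reads in these widths was not tested.

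The widest region of all was 5746 bp at chr17:39843046-39848791, with a GC content of 64.9%, where the annotation has the ribosomal RNA gene CT010467.1 and the long RNAs Gm26917, Gm42418 and AY036118. It is not among the 21, since no copy was found in the assembly, although ribosomal RNA genes are present in many copies in mouse genomes. The second widest, 4579 bp at chr1:24611571-24616149, holds a row of mitochondrial pseudogenes and was identical to the mitochondrial genome at 99.96% of 4579 bp. Another, 2944 bp at chr2:22587307-22590250 inside Myo3a, matched the mitochondrial genome along its whole length at 97.4%. Mitochondrial matches of at least 100 bp occurred in 16 of the 32388 merged regions. The third widest, 3802 bp at Gm21738 on chromosome 14, was 84.2% soft-masked. In these 4 regions the proximal and distal lengths differed by at most 15 bp.

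Chromosome 14 had 30 of the widest regions, 2.17% of its merged regions against 0.849% over the genome. Of the 30, 7 were near-identical members of 1 family, between 3809469 and 6757709, with 35 to 42 copies each on that chromosome and a best identity of 98.3% to 100%. They were 1803 to 1884 bp wide and included the starts of the predicted genes Gm3002, Gm3264, Gm3488 and Gm8206. A further pair, at the zinc finger genes Zmym2 (2116 bp) and Zmym5 (1818 bp), were copies of each other, and 21 regions of this chromosome had no copy. On chromosome 3 the histone gene pairs Hist2h2aa1 with Hist2h3c1 (2101 bp) and Hist2h2aa2 with Hist2h3c2 (2048 bp) were copies at 99.6% identity. Cdk6, a kinase that drives entry into the cell cycle, had a region of 2361 bp. A copy of 63.0% of this region lay on another sequence of the assembly, at 90.1% identity.

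The other regions among the 20 widest, apart from the tandem repeat in an intron of chromosome 17 (2537 bp), were promoters by the 1 kb rule, and no copy of them was found. By its centre, the region at Crlf2 was placed in an intron and that at Muc19 in an exon. Ppp2r3d, a regulatory subunit of protein phosphatase 2A, had 3440 bp open, of which the proximal peak covered 3440 and the distal peak 3349. Klhl29 had 2771 bp (2611 proximal, 2612 distal) and Tent5a, a cytoplasmic poly(A) polymerase whose loss causes brittle bones, 2753 bp (1819 proximal, 2704 distal). Nr3c1, the glucocorticoid receptor, had 2644 bp (2621 and 2604), Chst2, a sulphotransferase, 2538 bp (2471 and 1753), and Crlf2, a cytokine receptor gene, 2524 bp (2524 and 2420). These were followed by Ppp3ca, the catalytic subunit of calcineurin (2491 bp), the distal-only region at Muc19 (2469 bp), Cobll1 (2468 bp), Tpbg, an inhibitor of Wnt signalling (2466 bp), a region inside Cic, the Capicua repressor (2456 bp), Klf12 (2402 bp), Sptbn1, a spectrin (2395 bp), Nfib (2395 bp) and Csf2ra, a cytokine receptor (2382 bp).

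The widest promoters included 27 genes of the transcription factor list, 7 of the housekeeping list and 2 of the matrix list. Of 12040 protein-coding genes with any accessible region at the start site, 293 (2.43%, interval 2.17% to 2.72%) had one of the widest. For genes in the list of transcription factors the count was 27 of 726 (3.72%, 2.57% to 5.36%). It was 8 of 332 (2.41%, 1.23% to 4.68%) for symbols made of Zfp and a number, which name zinc finger proteins, and 19 of 394 (4.82%, 3.11% to 7.41%) for the remainder. At a minimum of 1400 bp the shares were 14.3% for the whole list, 8.73% for the numbered Zfp symbols, 19.0% for the remainder and 12.9% for all genes. The lists came from gene symbols and do not hold every transcription factor, so that Zfpm2 (2028 bp) and Bach2 (1987 bp) are not counted in them. No set test was made.

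The 19 listed transcription factors outside the numbered Zfp symbols were of many families. Beside Nr3c1, Klf12 and Nfib, nuclear factor I B, they included Tbx18, a limb and perichondrial T-box factor, with a region of 2210 bp of which proximal peaks covered 2195 and distal peaks 1391 bp. Tshz3, a teashirt zinc finger gene, had 2190 bp (2101 and 2075). The Sp and Krüppel-like family, which binds GC boxes, was present with Sp3 (2157 bp), Klf11 (1931 bp) and Sp4 (1911 bp) as well as Klf12. The ETS family had Elf2 with 2 wide promoters of 2016 and 1917 bp, and Elf1 with 1802 bp. Jun (2145 bp), Egr1 (2031 bp) and Bhlhe40 (1996 bp) are induced early by growth and stress signals. Rest (1881 bp), the repressor of neuronal genes, Hmga1 (1965 bp), an architectural chromatin protein, Foxn2 (1927 bp), Zbtb14 (1998 bp), Zbtb11 (1986 bp) and the orphan receptor Nr6a1 (1871 bp) completed the list. Among these 19 genes the covered lengths of the 2 lists differed most at Tbx18.

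The 8 numbered Zfp genes were Zfp91 (2365 bp), Zfp367 (2107 bp), Zfp827 (1986 bp), Zfp654 (1907 bp), Zfp646 and Zfp668 at the same region (1867 bp), Zfp277 (1856 bp) and Zfp407 (1846 bp). For Zfp827 the start lay just outside the region.

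Chondrogenic and limb transcription factors had 2 of 56 (3.57%, interval 0.985% to 12.1%), namely Nfib and Tbx18. Sox11 (1712 bp), Cbfb (1643 bp), the partner of Runx factors, Nkx3-2 (1593 bp), Mef2c (1448 bp) and Twist1 (1443 bp) came next in that list. The regulators that define chondrocytes had narrower regions than these, at 800 bp for Sox9, 784 bp for Sox5 and 1079 bp for Sox6. The median was 903 bp over the 56 genes of this list and 1016.5 bp over all protein-coding genes with a region.

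Of 92 matrix genes with a region at the start, Fbn1 (1975 bp) and Hapln1 (1853 bp) had one of the widest (2.17%, interval 0.598% to 7.58%), a share close to the 2.43% of all genes. Hapln1 was the only one of 23 collagen and cartilage genes, next to Col9a1 with 1643 bp, Col2a1 with 1099 bp, Acan with 978 bp, Col11a1 with 946 bp and Comp with 496 bp. The Hapln1 region was less CpG-rich than most of the widest, with observed over expected CpG of 0.416 and island stretches over 52.4% of it, and Fbn1 had 0.638 and 79.4%.

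Housekeeping genes had 7 of 269 (2.60%, interval 1.27% to 5.27%), again close to all genes. They were the ribosomal protein gene Rpl7 (2263 bp), the polymerase subunit Polr2h (2211 bp), the RNA-binding protein genes Hnrnpdl (2108 bp), Hnrnpk (1887 bp) and Hnrnpa2b1 (1876 bp), the chaperone gene Hsp90ab1 (1998 bp) and the splicing factor gene Srsf6 (1945 bp). The distal list covered less at some of them, with 1121 of 1998 bp at Hsp90ab1, 1046 of 1945 bp at Srsf6 and 1117 of 1876 bp at Hnrnpa2b1, where proximal peaks covered 1988, 1746 and 1876 bp. At Hnrnpk the proximal list covered 1348 bp and the distal list 1862 bp.

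Immediate-early and stress genes had 4 of 70 (5.71%, interval 2.24% to 13.8%), namely Jun, Tob1 (2095 bp), Egr1 and Bhlhe40, and 16 of 70 (22.9%) had a region of at least 1400 bp. That share was 12.9% for all genes, 12.8% for signalling genes, 12.6% for housekeeping genes, 12.5% for chondrogenic and limb transcription factors and 12.0% for matrix genes. Growth plate signalling genes had 3 of 78 (3.85%, 1.32% to 10.7%). These were Igf1r (1926 bp), the receptor of insulin-like growth factors, Grem1 (1882 bp), an antagonist of BMP signalling, and Fzd1 (1840 bp), a Wnt receptor, while Fgfr3, which restrains chondrocyte proliferation, had 748 bp and Ptch1, the Hedgehog receptor, 604 bp. The intervals of the immediate-early and signalling lists both include the 2.43% of all genes.

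Only 15 of the widest regions lay away from annotated start sites, 11 intergenic, 3 in introns and 1 in an exon. Of the 15, 6 had a copy elsewhere or were mostly repeat. These were the intron region of chromosome 17 and the intergenic regions near Zfp825 and Hephl1, which are tandem repeats, and 3 members of the family on chromosome 14. The remaining 9 had none of these features. Near Mpzl1 (2094 bp, 6702 bp from the nearest protein-coding start) and near Ccr1 (2116 bp, 42859 bp away) the CpG content was that of an island, with observed over expected values of 0.754 and 0.606. The other 7 had values of 0.157 to 0.493 and a GC content of 43.4% to 60.4%.

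They included the intron region of Rin2 (chr2:145723485-145725506, 2022 bp, 59228 bp from the start of this gene), an exon of Prr36 (chr8:4212855-4214881, 2027 bp, 2031 bp from the start) and intergenic regions near Dock9 (chr14:121824533-121826479, 1947 bp, 26696 bp away), Spry2 (chr14:105732139-105734016, 1878 bp, 162803 bp away), Eif3h (chr15:51591493-51593311, 1819 bp, 272212 bp away) and Tenm4 (chr7:95852501-95854303, 1803 bp, 316943 bp away). Spry2 is an inhibitor of FGF signalling. The nearest gene names a position, and which gene a region acts on was not measured. Each of the 7 held peaks of both ends. Proximal peaks covered 1729 bp and distal peaks 1420 bp of the region near Eif3h, and 1945 and 1632 bp of that near Dock9. AP-1 heptamers numbered 11 in these 7 regions (0.820 per kb, against 0.976 per kb in all merged regions away from promoters), with 3 near Tenm4, 2 in Rin2, 2 near Dock9 and 1 in each of the others.

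The widest regions differed from all merged regions in the density of short sequence words that transcription factors bind. Words were counted on both strands over whole regions. GC boxes (GGGCGG or CCGCCC), bound by Sp factors, occurred at 3.76 per kb in the widest regions and 1.92 per kb in all merged regions. Among promoter regions alone the densities were 3.92 and 3.25 per kb. At least 1 GC box was present in 254 of 260 widest promoters, against 79.3% of all promoter regions and 96.3% of those of 1400 to under 1800 bp. AP-1 heptamers were sparser, at 0.143 against 0.567 per kb over all places and 0.128 against 0.207 per kb in promoters. A heptamer was present in 64 of 275 widest regions (23.3%, interval 18.7% to 28.6%) and in 33.4% of all regions. Among promoters it was present in 21.5% of the widest and 16.6% of all, and away from promoters in 53.3% and 45.8%. The widest regions are longer, and a larger share of them are promoters. Away from promoters the widest regions had 0.403 per kb, those of 1400 to under 1800 bp 0.544 per kb and all regions 0.976 per kb. Of these 15 widest regions, 6 had a copy or were mostly repeat. Of the other 9, the 7 with low CpG content had 0.820 per kb, and those near Mpzl1 and Ccr1 held no heptamer. Densities in promoter regions of 1400 to under 1800 bp were 3.80 per kb for GC boxes and 0.148 per kb for AP-1.

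Other words were mostly sparser in the widest promoters. In promoters the widest regions had 1.04 CCAAT boxes (CCAAT or ATTGG) per kb against 1.25 in all, 0.379 against 0.463 per kb for the RUNX word (TGTGGT or ACCACA), 0.245 against 0.356 for the ETS word (CCGGAAG or CTTCCGG) and 0.155 against 0.215 for the TATA word (TATAAA or TTTATA). The SOX words (ACAATGG or ACAAAGG, or either reverse complement) occurred at 0.220 against 0.212 per kb and the CRE (TGACGTCA) at 0.0565 against 0.0526 per kb. In promoters of 1400 to under 1800 bp these 6 densities were 1.10, 0.398, 0.247, 0.188, 0.238 and 0.0443 per kb, in the same order. Single regions weighed on some of the counts. Of 30 CRE matches in the widest promoters, Csf2ra held 7, Ppp2r3d 4 and Crlf2 2, and the region at Muc19 held 25 of 201 RUNX matches. These densities depend on base composition, which differs between the sets, and a match is not a bound site.

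Windows of equal length were counted as well. Within the 250 bases before a protein-coding start, 180 of 240 windows in the widest regions (interval 69.2% to 80.1%) held a GC box, against 64.9% of the 10948 windows in all merged regions and 75.7% of those in regions of 1400 to under 1800 bp. A CCAAT box was present in 27.9% (22.6% to 33.9%) against 36.3%, the TATA word in 2.92% (1.42% to 5.90%) against 5.04%, the RUNX word in 5.42% (3.19% to 9.05%) against 9.12%, the ETS word in 10.0% (6.81% to 14.4%) against 14.5%, the SOX words in 4.58% (2.58% to 8.02%) against 4.35%, the CRE in 2.08% (0.893% to 4.78%) against 3.22% and an AP-1 heptamer in 2.50% (1.15% to 5.35%) against 3.32%. In windows of regions of 1400 to under 1800 bp the shares from CCAAT box to AP-1 were 31.3%, 3.94%, 5.77%, 8.98%, 4.40%, 2.75% and 2.38%, in the same order. The sequences printed for Klf12, Zfp91, Fbn1 and Hapln1 held 4, 0, 1 and 0 GC boxes.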

How the data were processed

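ATAC-seq was carried out on 2 biological replicates of each femur end. The authors aligned reads to mm10, removed duplicates, called peaks, and kept those that passed an irreproducible discovery rate (IDR) of 0.05 across replicates. The submitters' processing notes name Bowtie2 2.2.8 and MACS2 2.1.1. The deposited files hold peak starts and ends, 1 list per end that combines the replicates, without counts, scores or p-values, so depth per peak is unknown. The lists held autosomal peaks only.

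Peaks were merged where they overlapped by 1 bp and placed with GRCm38 and GENCODE mouse release 21, with pysam 0.24.0, samtools 1.23.1, NumPy 2.4.6 and SciPy 1.17.1 under Python 3.11.15. All 19 chromosomes named were in the assembly, and 0 peaks passed a chromosome end. Copies (90% identity over 50% of a region) and mitochondrial matches (100 bp) were searched with BLAST 2.17.0. Figures were drawn with matplotlib 3.10.9. Intervals are 95% Wilson intervals. The merging, island and word counts were tested on simulated peaks and sequences, in which 1200 of 1200 wide regions were recovered.

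Regions and gene lists were chosen with earlier results of these data known. Named were the 20 widest regions, list genes, regions away from start sites, those with the most peaks of a list, those nearest the minimum, those that differed most between ends, and repeat or mitochondrial-like regions. List genes with narrower regions (such as Sox9 and Col2a1) were named for comparison, and so were the widest regions with starts on both strands and the longest gaps, after their values had been seen. NRF1 sites were not searched. A region away from start sites is not reported here by name. Alternatives were other minimum widths, single lists, merging across gaps, other promoter and island definitions, and leaving out copied sequence.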

Additional observations from a re-analysis of the deposited data

How the results depend on the processing

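The deposited lists combine the replicates, so no replicate could be left out. No paired analysis was possible because each femur end has 1 list and no test was made. Of 80 values recomputed under an alternative, 60 stayed within the counting interval of the reported share or within 1.5 times the reported count. The other 20 moved beyond it, and reversals of direction were not assessed. The promoter share kept within its interval except with protein-coding start sites only, where it was 89.1%. The number of regions depended on the minimum, with 1067 at 1500 bp, 38 at 2200 bp and 157 in the distal list alone. At 1500 bp, 8.81% held several peaks of a list, 80 transcription factor, 6 matrix and 29 housekeeping genes had a region, and at 2200 bp these genes numbered 5, 0 and 2. The distal list alone gave 13, 0 and 2 genes, and the proximal list alone 1 matrix and 4 housekeeping genes. Of the wide peaks in the distal list alone, 5.73% overlapped several proximal peaks, which is a different measure from several peaks of a list in a merged region. Merging across gaps of up to 150 bp raised the share of regions with several peaks of a list to 28.6%. The CpG island share was 84.2% at 2200 bp and 98.4% without regions that have copies, mitochondrial matches or over 50% repeat, an alternative chosen after the data had been seen, which left 254 regions and a promoter share of 96.5%. Read depth limits a peak's width, and was not analysed here.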
